A study of Mus musculus with 9 samples.

Results

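The interferon effectors examined here are 10 mouse genes that encode the Ifit proteins and their companions: Ifit1, Ifit2, Ifit3, Ifit3b, Rsad2, Isg15, Usp18, Herc6, Ifi44 and Ifi44l. They were taken by symbol from a table of 55401 genes, and each symbol matched 1 row, of which 9 were among the 12819 genes tested below. RAW264.7 is a macrophage line derived from a tumor that Abelson murine leukemia virus induced in a male mouse, and its labelled genotype is WT. The cells received DMSO, the solvent (DMSO group), DMSO with lipopolysaccharide (LPS), a bacterial wall component that drives macrophages toward the inflammatory M1 state (LPS group), or LPS with skatole, an indole compound (LPS + Ska group). The labels give 24 h of treatment for every group, as does the results section of the study, whereas its methods section gives a longer one. The skatole concentration used for the RNA samples is not given in the sources used here. RNA was measured in 9 samples, 3 in each group, numbered 5, 6 and 7 by the authors. The LPS group's label names DMSO as well as LPS and that of LPS + Ska does not name DMSO. The labels do not say that the samples came from separate cultures of this single line, so p-values measure only the spread between these samples, which may be technical.

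Each value is a TPM, a gene's share of all transcripts in a sample after division by transcript length, scaled to the same total in every sample, so that levels of different genes can be compared. The number of reads cannot be read from TPM, so the depth is unknown. A TPM of 1 or more was given to 12498 to 13012 genes in a column. The 8 macrophage markers all had a mean TPM of at least 1, with summed levels of 12310 to 13270 TPM in DMSO, 7273 to 7673 with LPS and 13560 to 13850 with LPS + Ska. Most of that sum was Lyz2, with means of 9151, 4423 and 10061 TPM, whereas Csf1r had 835, 522 and 467 TPM, Spi1 408, 233 and 230, and Cd68 839, 657 and 608. Cd14 had 1296, 1523 and 2218 TPM, and Itgam 66.0, 61.2 and 80.7. Fcgr1 had 30.5, 34.1 and 22.4 TPM, and Adgre1 24.2, 20.7 and 19.7. Of 19 markers of T, B, NK and plasmacytoid dendritic cells, neutrophils and fibroblasts, 3 reached that level (Bst2, Tcf4 and S100a8) and 11 were listed at 0 in every column. The 4 plasmacytoid dendritic cell markers summed to 124 to 136 TPM in DMSO, 324 to 372 with LPS and 175 to 257 with LPS + Ska, of which Bst2, itself an interferon-induced gene, had a mean of 89.2, 311 and 188 TPM, whereas Klk1 was at 0 throughout and Siglech did not exceed 0.743 TPM. The part of these differences in the results below was not tested.

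The columns of 2 groups were tied to each other. With LPS, the value of replicate 5 was midway between those of replicates 6 and 7 in 17950 of 17950 genes in which the latter were above 0, and with LPS + Ska in 17658 of 17658 (within 1e-05 TPM). In DMSO this held for 10 of 16674 genes. Among the effectors the tie held in all 10 with LPS and in 8 with LPS + Ska, and in the other 2, Ifit3 and Ifit3b, a column was listed at 0. No source used here describes this step. A gene thus has no more than 2 independent values in either group, so that n = 3 counts columns and the SD is not that of 3 samples. The tests below use the columns as deposited, and were repeated with 2 values per group computed back from them (recovered values).

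Interferon effectors are genes that cells switch on after an interferon signal. Type I interferon binds a receptor made of Ifnar1 and Ifnar2, the kinases Jak1 and Tyk2 pass the signal on, and a transcription factor complex that holds Stat2 and Irf9 binds a DNA element called the interferon-stimulated response element (ISRE). Macrophages make interferon-β after LPS, so these genes are a well known late part of the LPS response. Their products act in different ways: Isg15 is a ubiquitin-like protein that is attached to other proteins, Ifit proteins bind viral RNA or partner proteins, and Rsad2 (viperin) is an enzyme that makes an altered nucleotide.

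The stretches before the start of the genes show what several members share in sequence. RefSeq promoters (GRCm38.p6) were found for 9 of the 10 genes, with Usp18 unmatched, and the 250 bases before the start were searched on both strands for the ISRE core, GAAA, any 2 bases and GAAA again, which reads TTTC, any 2 bases and TTTC on the other strand. It was found for 5 of the 9 genes, against 2.98% of 32851 promoters and 3.46% of 27025 genes with a promoter. The 5 are printed 5′ to 3′ on the strand of the gene, with the matches in capitals. Ifit2, which had no match and which LPS did not raise past the limits, is also printed, at the first of its 2 annotated starts. Herc6, Ifi44 and Ifi44l, which LPS did raise past the limits, had no match either and are not printed.
Isg15, chr4:156200819-156201068, minus strand: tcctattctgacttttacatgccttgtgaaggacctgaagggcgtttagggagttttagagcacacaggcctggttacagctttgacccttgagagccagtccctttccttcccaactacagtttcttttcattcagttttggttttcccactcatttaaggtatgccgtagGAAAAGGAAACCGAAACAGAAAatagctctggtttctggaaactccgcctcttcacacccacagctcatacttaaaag
Ifit1, chr19:34640639-34640888, plus strand: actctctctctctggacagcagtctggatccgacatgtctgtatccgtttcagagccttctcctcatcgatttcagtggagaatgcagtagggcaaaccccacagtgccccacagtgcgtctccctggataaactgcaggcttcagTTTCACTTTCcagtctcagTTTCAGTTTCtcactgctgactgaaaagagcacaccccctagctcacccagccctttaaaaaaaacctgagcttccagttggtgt
Ifit3, chr19:34583279-34583528, plus strand: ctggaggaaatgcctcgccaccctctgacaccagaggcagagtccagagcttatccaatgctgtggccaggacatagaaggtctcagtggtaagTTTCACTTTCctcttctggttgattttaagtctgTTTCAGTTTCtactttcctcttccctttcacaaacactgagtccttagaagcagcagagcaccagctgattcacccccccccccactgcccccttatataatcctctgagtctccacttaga
Ifit3b, chr19:34607707-34607956, plus strand: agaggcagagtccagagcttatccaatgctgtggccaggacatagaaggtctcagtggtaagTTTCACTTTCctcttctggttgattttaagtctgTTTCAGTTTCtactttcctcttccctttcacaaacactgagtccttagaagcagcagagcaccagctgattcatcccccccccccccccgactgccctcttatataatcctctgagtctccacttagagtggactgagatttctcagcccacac
Rsad2, chr12:26456453-26456702, minus strand: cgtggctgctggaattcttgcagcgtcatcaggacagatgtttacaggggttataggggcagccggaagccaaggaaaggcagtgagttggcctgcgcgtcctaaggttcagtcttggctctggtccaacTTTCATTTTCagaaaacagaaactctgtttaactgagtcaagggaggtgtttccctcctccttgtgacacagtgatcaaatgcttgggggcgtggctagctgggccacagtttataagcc
Ifit2, chr19:34550444-34550693, plus strand: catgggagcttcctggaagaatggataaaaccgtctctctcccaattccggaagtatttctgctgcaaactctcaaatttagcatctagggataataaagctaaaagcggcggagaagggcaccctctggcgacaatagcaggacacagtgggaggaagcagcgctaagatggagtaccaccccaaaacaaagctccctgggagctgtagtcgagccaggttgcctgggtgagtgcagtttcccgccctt

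In Isg15, 3 matches overlap in a single run from position -78 to -57, counted from the start. Ifit1 holds TTTCACTTTC at -104 and TTTCAGTTTC at -85, and the same 2 matches stand in the same order in Ifit3 (at -156 and -122) and in Ifit3b (at -188 and -154). Rsad2 holds 1 match at -120. The stretches of Ifit3 and Ifit3b had 217 of 250 bases (86.8%) in common in a global alignment, compared with 64.4% for Ifit1 and Ifit3 and 57.2% for Ifi44 and Ifi44l. A κB-like sequence, GGG, any 5 bases and CC on either strand, stood before 5 of the 9 genes and before 48.7% of all genes, and a GAS-like sequence, TTC, any 3 bases and GAA, stood before Ifit2 alone, at -241, and before 8.13% of all genes. In Ifit2 the κB-like and GAS-like letters overlap. These matches are letters in a window and were not tested for binding.

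**Figure D1:**
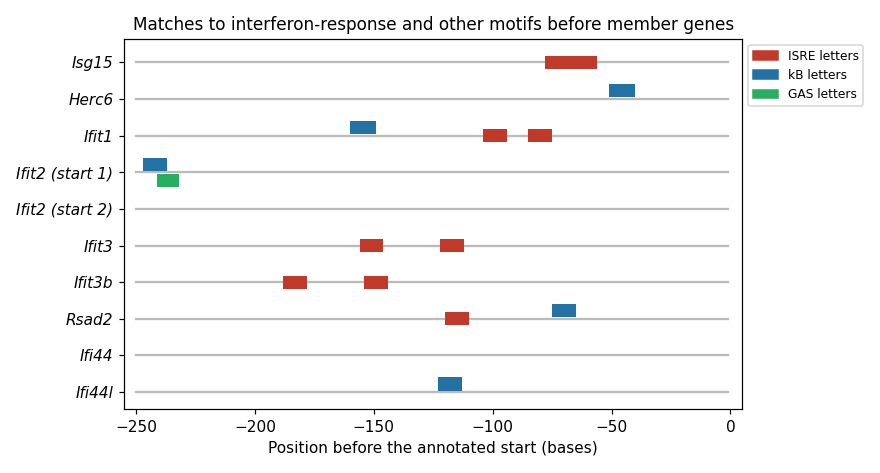
Positions of sequence matches in the 250 bases before the annotated start of 9 genes (x axis, bases before the start; Ifit2 has 2 annotated starts); red bars are ISRE core letters, blue κB-like letters and green GAS-like letters. ISRE letters stand before Isg15, Ifit1, Ifit3, Ifit3b and Rsad2, between positions -188 and -57.

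Fold changes below come from limma on log2(TPM + 1) over the 12819 genes whose TPM averaged 1 or more. A call needed an adjusted p (Benjamini-Hochberg) under 0.05 together with a fold change above 1.5 or below 0.67. Adding 1 makes the fold change of weakly expressed genes smaller than the ratio of their TPM. Values in a group are given in the order of replicates 5, 6 and 7.

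The ISG15 cycle is the conjugation system among these genes. Isg15 (ENSMUSG00000035692, chr4:156199424-156200818, minus strand) had 0.920, 1.40 and 0 TPM in DMSO, 25.1, 23.3 and 27.03 with LPS, and 7.28, 2.69 and 11.9 with LPS + Ska. The 3 groups did not overlap, and the LPS + Ska columns, at 7.28 ± 4.59 TPM (SD, n = 3 columns), had the largest SD of any member in that group. The log2 fold change was 3.97 for LPS compared with DMSO (standard error 0.44, adjusted p = 5.14e-05) and -1.83 for LPS + Ska compared with LPS (standard error 0.44, adjusted p = 0.0134). The second call was lost with a pseudocount of 0.1 (adjusted p = 0.132), the highest over its alternatives, which started at 0.00545, and with recovered values it was 0.0248.

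Usp18, the protease that takes Isg15 off its targets and also restrains the interferon receptor, lies at chr6:121245906-121270917 (ENSMUSG00000030107, plus strand). It had 0.590, 3.14 and 2.95 TPM in DMSO, 99.6, 98.0 and 101 with LPS, and 38.3, 35.4 and 41.2 with LPS + Ska, so that skatole columns stood far under the LPS columns and far over the DMSO columns. Its log2 fold changes were 5.09 (standard error 0.30, adjusted p = 1.26e-06) for LPS compared with DMSO and -1.36 (standard error 0.30, adjusted p = 0.0102) for LPS + Ska compared with LPS. With recovered values the adjusted p of the second was 0.049, and with a pseudocount of 0.1 it was 0.0633. Over all its alternatives it ran from 3.5e-05 to 0.17, the latter with recovered values and no filter on TPM. A non-coding gene on the opposite strand, Gm44148, overlaps Usp18 and did not exceed 0.644 TPM in any column.

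Herc6 encodes the main Isg15 ligase of the mouse, the enzyme that joins Isg15 to its targets (ENSMUSG00000029798, chr6:57581000-57664632, plus strand). Its TPM were 2.78, 3.53 and 2.69 in DMSO, 12.9, 13.3 and 12.5 with LPS, and 6.18, 7.24 and 5.13 with LPS + Ska. Of the cycle's genes it had the smallest rise with LPS, from 2.997 ± 0.462 (SD, n = 3) to 12.9 ± 0.426 TPM (SD, n = 3 columns), or by 1.81 on the log2 scale with a standard error of 0.13 (adjusted p = 4.58e-06). It fell with skatole by 0.96 on the log2 scale (standard error 0.13, adjusted p = 0.00108). Gm45193, a non-coding gene that overlaps Herc6 on the same strand, did not exceed 0.384 TPM.

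The Ifit genes form a cluster on chromosome 19 and encode proteins built of tetratricopeptide repeats. Ifit1, which binds RNA with an incompletely capped end, lies at chr19:34640871-34650009 (ENSMUSG00000034459, plus strand). It had 0.0406, 0 and 0.320 TPM in DMSO, 9.29, 9.77 and 8.81 with LPS, and 1.15, 1.13 and 1.18 with LPS + Ska. LPS raised it by 3.21 on the log2 scale (standard error 0.15, adjusted p = 2.55e-07). The ratio of mean TPM in LPS + Ska over that in LPS was 0.124, the lowest of the 9 members tested.

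Ifit2 (ENSMUSG00000045932, chr19:34550694-34576419, plus strand), which like its relatives takes part in antiviral defence, behaved apart from the other members. It was the most abundant member in DMSO, at 3.72, 4.46 and 5.31 TPM, and had 5.20, 4.83 and 5.57 TPM with LPS and 3.48, 3.78 and 3.19 with LPS + Ska. The DMSO columns overlapped the columns of both other groups. Its log2 fold change was 0.18 for LPS compared with DMSO (standard error 0.13, adjusted p = 0.257), -0.47 for LPS + Ska compared with LPS (standard error 0.13, adjusted p = 0.0272, inside the fold limit and 0.1 with recovered values) and -0.29 for LPS + Ska compared with DMSO (adjusted p = 0.0841). The correlation of its log2(TPM + 1) with the mean standardized profile of the 9 members tested, itself included, was 0.48 over the 9 columns, whereas the other 8 had 0.91 to 0.99, a description over columns that share the tie.

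Ifit3, a partner of other Ifit proteins, lies at chr19:34583531-34588731 (ENSMUSG00000074896, plus strand). It was near the filter, with 0.247, 0.194 and 0.182 TPM in DMSO, 2.47, 2.46 and 2.47 with LPS, and 0.383, 0.872 and 0 with LPS + Ska. Its LPS columns lay above every other column, and those of DMSO lay inside the range of LPS + Ska. The log2 fold change was 1.52 for LPS compared with DMSO (standard error 0.22, adjusted p = 2.93e-04) and -1.34 for LPS + Ska compared with LPS (standard error 0.22, adjusted p = 0.00259).

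Ifit3b, a close copy of Ifit3 at chr19:34607970-34613401 (ENSMUSG00000062488, plus strand), did not reach a mean TPM of 1. It had 0, 0.237 and 0.118 TPM in DMSO, 0.644, 0.448 and 0.841 with LPS, and 0.0451, 0 and 0.135 with LPS + Ska. Without the filter its log2 fold change was 0.55 for LPS compared with DMSO (adjusted p = 0.00665, inside the fold limit) and -0.63 for LPS + Ska compared with LPS (adjusted p = 0.00802). Of the distinct windows of 50 bases in annotated Ifit3 transcripts, 51.2% also occurred in Ifit3b, and 44.5% of the Ifit3b windows occurred in Ifit3, so the authors' counting could have split reads between these copies and their separate levels are uncertain. Of the Herc6 windows 12.5% occurred in other genes, mainly in the overlapping Gm45193, and the shares were 7.13% for Ifit1, mainly in Ifit1bl2, 3.96% for Isg15 and 2.81% for Usp18. For Ifit2, Rsad2, Ifi44 and Ifi44l no window occurred in another gene (0.0%).

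Rsad2 encodes viperin, which turns a cytidine nucleotide into a chain terminator for viral polymerases (ENSMUSG00000020641, chr12:26442746-26456452, minus strand). It was listed at 0, 0.272 and 0 TPM in DMSO, and had 4.26, 4.63 and 3.90 TPM with LPS and 0.592, 0.650 and 0.534 with LPS + Ska. Its 3 groups did not overlap. LPS raised it by 2.28 on the log2 scale (standard error 0.16, adjusted p = 3.14e-06), and it fell with skatole by 1.72 (standard error 0.16, adjusted p = 1.43e-04). Its neighbour Cmpk2, a nucleotide kinase gene that starts on the opposite strand, had a mean of 0.692 TPM in DMSO, 12.01 with LPS and 1.92 with LPS + Ska, and was called in the same directions (log2 fold changes of 3.02 and -2.16).

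Ifi44 and Ifi44l are interferon-induced neighbours on chromosome 3 whose biochemical roles are less settled. Ifi44 (ENSMUSG00000028037, chr3:151730922-151749960, minus strand) was the most abundant member with LPS, at 206, 210.5 and 202 TPM, compared with 3.85, 2.13 and 4.27 in DMSO and 58.5, 61.8 and 55.1 with LPS + Ska. Its mean TPM with LPS was 60.4 times that in DMSO. On the log2 scale it rose with LPS by 5.59 (standard error 0.16, adjusted p = 2.56e-08), and it fell with skatole by 1.80 (standard error 0.16, adjusted p = 1.37e-04).

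Ifi44l (ENSMUSG00000039146, chr3:151758737-151762892, minus strand) had 1.22, 0.495 and 1.02 TPM in DMSO, 61.7, 64.9 and 58.5 with LPS, and 11.3, 13.2 and 9.51 with LPS + Ska. It rose with LPS by 5.06 on the log2 scale (standard error 0.16, adjusted p = 3.13e-08). Its log2 fold change with skatole was -2.35 (standard error 0.16, adjusted p = 2.81e-05). The ratio of mean TPM in LPS + Ska over that in LPS was 0.184 for Ifi44l and 0.284 for Ifi44.

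**Figure D2:**
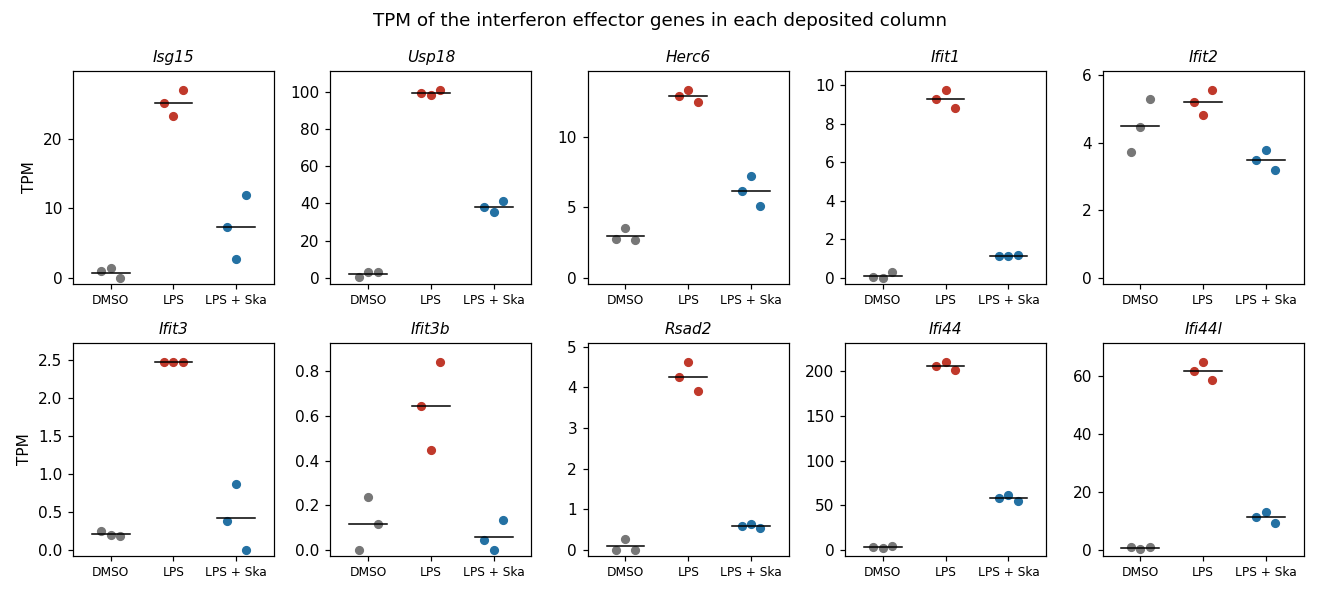
TPM of the 10 genes (y axis, linear, its own range in each panel) in DMSO, LPS and LPS + Ska; points are the deposited columns in the order of replicates 5, 6 and 7, and black lines are group means. In 9 of the 10 genes every LPS column lies above every DMSO column, and in all 10 every LPS + Ska column lies under every LPS column.

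LPS compared with DMSO asks which effectors the inflammatory stimulus switched on. Of the 9 members tested, 8 were called higher (12.7% of all genes tested were called higher), all but Ifit2. Ifit1, Ifit3 and Rsad2 passed the filter only through their LPS columns, so their calls are no independent support. Without the filter all 10 could be tested, 8 were called higher (7.23% of 25181 genes) and the median log2 fold change of the 10 was 2.74, against 0 over all genes. LPS and DMSO columns did not overlap in 9 of the 10 members, the LPS columns being higher. This held for 30.3% of the genes tested, which leave out Ifit3b.

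LPS + Ska compared with LPS asks whether skatole changed the induced level. Of the 9 members tested, 8 were called lower (6.14% of all genes tested were called lower). With recovered values the count was also 8 (640 of 12819 genes tested). Ifit1, Ifit3 and Rsad2, which passed the filter only through their LPS columns, are among the 8, and a filter passed in this way favours a fall from LPS, so their calls are no independent support here either. Without the filter 9 of 10 were called lower (3.59% of 25181 genes), with a median log2 fold change of -1.54 over the 10 against -0.02 over all genes. With recovered values and no filter 7 of 10 were, Isg15 and Usp18 having lost their calls (adjusted p = 0.105 and 0.17). In all 10 members the LPS + Ska columns lay under the LPS columns (34.0% of the genes tested, which leave out Ifit3b).

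LPS + Ska compared with DMSO asks how far from the unstimulated level the genes remained. Isg15, Usp18, Herc6, Ifit1, Ifi44 and Ifi44l, 6 of the 9 tested, were called higher (11.4% of all genes tested were called higher), by 2.14, 3.73, 0.84, 0.95, 3.79 and 2.70 on the log2 scale. Rsad2 changed by 0.55 (standard error 0.16, adjusted p = 0.0121), just inside the fold limit, although its mean TPM was 6.54 times that in DMSO. It was past the limit without DMSO replicate 6 (0.67) and after median-ratio scaling (0.60). The same held after rescaling without mitochondrial-genome and ribosomal protein genes (0.67) and with a pseudocount of 0.1 (2.16). Ifit3 changed by 0.19 (standard error 0.22, adjusted p = 0.484) and turned to -0.0376 without LPS + Ska replicate 6 (adjusted p = 0.883). Without the filter 6 of 10 were called higher (6.31% of 25181 genes), with a median of 0.90 over the 10 against -0.02 over all genes. Columns did not overlap in 7 of the 10 members, all higher with LPS + Ska (23.0% of the genes tested, which leave out Ifit3b). They overlapped for Ifit2, Ifit3 and Ifit3b. The median of all genes in this comparison was -0.175, which median-ratio scaling raised by 0.162. A fold change of 0 here thus stands above the middle of all genes. The shift was not the same for every gene, as Rsad2 moved only from 0.55 to 0.60. The 3 comparisons share their columns and are not independent of each other.

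**Figure D3:**
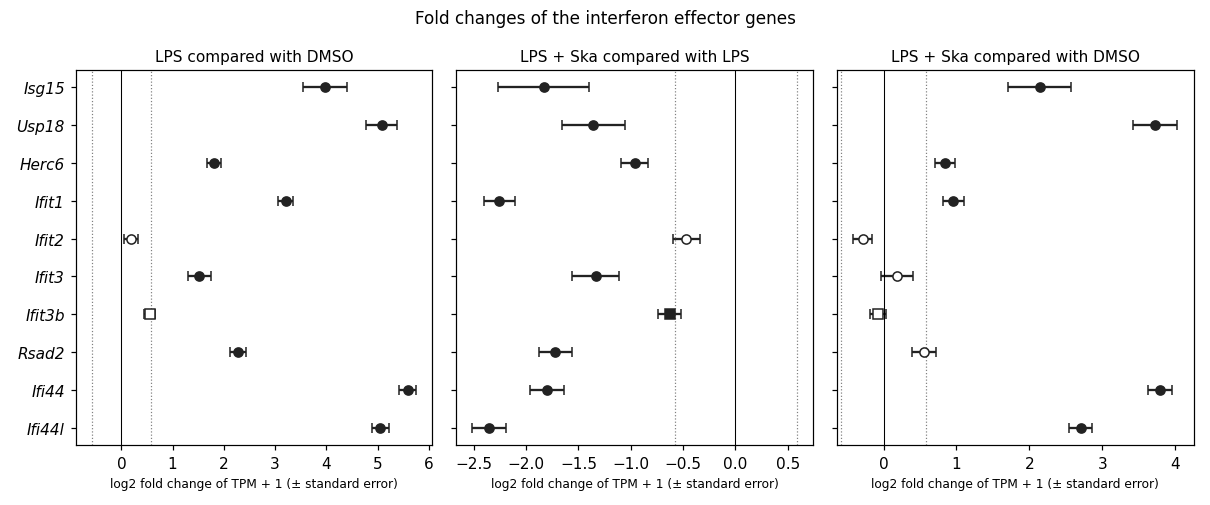
Log2 fold changes of TPM + 1 (x axis) with standard errors for the 10 genes in the 3 comparisons; filled symbols passed both limits, open symbols did not, squares mark Ifit3b from the fit without a filter, and dotted lines are the fold limits of 1.5 and 0.67. The first panel runs from 0.18 for Ifit2 to 5.59 for Ifi44, and all points of the second lie under 0.

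The share of the LPS rise that was still present with LPS + Ska differed among the 8 called members. It was the rise in mean TPM over DMSO with LPS + Ska as a percentage of that with LPS. Usp18 kept 37.0% (35.5% to 38.6% with any 1 column left out), Herc6 32.1% (26.8% to 37.4%), Ifi44 27.2% (26.3% to 28.0%) and Isg15 26.7% (17.3% to 36.1%). Lower shares were those of Ifi44l, 17.2% (15.7% to 18.7%), Rsad2, 12.02% (11.1% to 13.9%), Ifit1, 11.3% (10.7% to 12.2%) and Ifit3, 9.33% (-0.70% to 18.6%). The ranges of Usp18 and Ifi44 overlapped none of those of Ifi44l, Rsad2 and Ifit1, and that of Isg15 overlapped those of Herc6, Ifi44, Usp18 and Ifi44l. Within these ranges, the genes of the ISG15 cycle and Ifi44 stood over Ifit1 and Rsad2, and the range of Ifit3 overlapped those of Isg15, Ifi44l, Rsad2 and Ifit1. However, Ifit1, Ifit3 and Rsad2 passed the filter only through their LPS columns. A filter passed in this way favours a low share, so their low shares are no support for an order among the members. Their means with LPS + Ska were low, at 1.15, 0.418 and 0.592 TPM. The ranges do not cover the choice of scaling, and in the tied groups the remaining columns fix the one left out. After median-ratio scaling the shares of Usp18, Ifi44 and Ifit1 were 40.0%, 29.3% and 12.26%, above their ranges. No test was made of these shares.

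**Figure D4:**
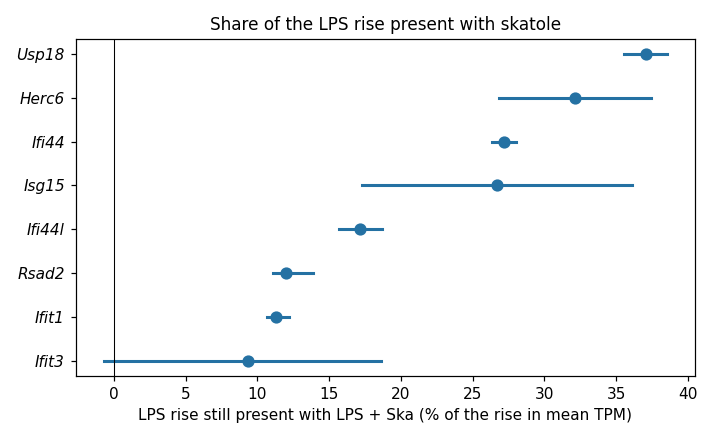
Share of the LPS rise in mean TPM still present with LPS + Ska (x axis, percent) for the 8 members called higher with LPS; points use all columns and lines span the lowest and highest values with 1 column left out. The points run from 9.33% for Ifit3 to 37.0% for Usp18.

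The order of levels also changed with treatment. In DMSO it ran from Ifit2 (4.50 TPM) through Ifi44, Herc6, Usp18, Ifi44l, Isg15, Ifit3, Ifit1 and Ifit3b to Rsad2 (0.0906 TPM), and every pair of neighbours in this order overlapped. With LPS the order was Ifi44, Usp18, Ifi44l, Isg15, Herc6, Ifit1, Ifit2, Rsad2, Ifit3 and Ifit3b, from 206 to 0.644 TPM, and no neighbours overlapped. With LPS + Ska, Ifi44 and Usp18 again led at 58.5 and 38.3 TPM. Ifi44l overlapped Isg15, Isg15 overlapped Herc6, Rsad2 overlapped Ifit3 and Ifit3 overlapped Ifit3b, and Ifit2 stood above Ifit1, the reverse of their order with LPS.

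The pathway around the effectors was described by 34 further genes, of which 30 passed the filter. LPS raised 19 of the 30 (12.7% of all genes tested) and lowered 4 (20.0% of all genes tested were called lower), and LPS + Ska compared with LPS lowered 16 (6.14% of all genes tested), with a median log2 fold change of -0.86 against -0.10 over all genes tested. The count of 16 was 15 with recovered values and 11 when the filter was also left out. In LPS + Ska compared with DMSO 16 were called higher (11.4% of all genes tested) and 6 lower (25.3% of all genes tested were called lower). Of the ligand, receptor and signalling genes, Ifnb1, which encodes interferon-β, was listed at 0 in every DMSO and LPS + Ska column. With LPS it had 0.0372, 0.112 and 0 TPM (a mean of 0.0496), so the groups overlapped at 0. Without the filter it was not called for LPS compared with DMSO (adjusted p = 0.181) or for LPS + Ska compared with LPS (adjusted p = 0.225). The receptor genes Ifnar1 and Ifnar2 fell with LPS by 0.63 and 1.01 on the log2 scale (adjusted p = 1.24e-04 and 2.84e-06), and their changes from LPS to LPS + Ska were 0.03 and 0.01 (adjusted p = 0.793 and 0.932). After median-ratio scaling the change of Ifnar1 with LPS was -0.54, inside the fold limit. The kinase gene Tyk2 fell with LPS (-0.81, adjusted p = 4.58e-05), while Jak1 had a change of 0.41, inside the fold limit.

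The transcription factor genes of the pathway divided by member. Irf9 rose with LPS (1.90, adjusted p = 9.32e-07) and had a change of -0.34 with skatole (adjusted p = 0.0413), inside the fold limit. Irf7, which amplifies the interferon response, rose from 3.35 to 96.1 TPM with LPS (4.54) and fell to 38.0 TPM with skatole (-1.33, adjusted p = 0.0037, or 0.078 with recovered values and no filter). Stat2 had a change of -0.25 with LPS (adjusted p = 0.229), and was called lower in LPS + Ska than in LPS (-0.85, adjusted p = 0.00631, or 0.0503 with recovered values and no filter) and than in DMSO (-1.10, adjusted p = 3.77e-04). Irf3, a factor that drives the interferon-β gene, fell with LPS by 0.97 (adjusted p = 1.43e-05) and was at -0.15 from LPS to LPS + Ska (adjusted p = 0.223).

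Of the enzymes that act with Herc6 on Isg15, the activating enzyme gene Uba7 rose with LPS from 18.4 to 30.3 TPM (0.71, adjusted p = 0.0026) and fell to 15.04 TPM with LPS + Ska (-0.97, adjusted p = 0.00177). The conjugating enzyme gene Ube2l6 changed by 0.40 and -0.45, both inside the fold limit (adjusted p = 9.98e-04 and 0.00194). Trim25, a ligase gene, rose with LPS (0.73, adjusted p = 1.02e-04) and changed by -0.17 with skatole (adjusted p = 0.176). Uba7 was therefore the gene of the 3 that was called in both comparisons. Among the other HERC genes, Herc1, Herc2 and Herc3 had LPS changes of -0.10, -0.17 and -0.02 (adjusted p = 0.486, 0.322 and 0.827), and Herc4 rose by 0.76 (adjusted p = 1.73e-04).

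Relatives of the Ifit genes were scarce, as Ifit1bl1 and Ifit1bl2 had at most a mean of 0.263 and 0.237 TPM in any group. Among 15 other effector genes, 14 were tested, LPS raised 13 and skatole lowered 12, against the same shares of all genes tested as above (12.7% and 6.14%). Oasl2 and Zbp1, which are among both counts, passed the filter only through their LPS columns, so their calls are no independent support. Rtp4, a chaperone gene of the interferon response, rose from 0.671 to 144 TPM with LPS (log2 fold change 6.44) and was at 72.4 TPM with LPS + Ska (-0.99). Mx2, an antiviral GTPase gene, rose from 0.162 to 21.2 TPM and fell to 3.83 TPM (-2.20, adjusted p = 1.46e-05). Oas1a, an enzyme gene that activates RNA decay, rose from 19.1 to 109.7 TPM and had 81.6 TPM with LPS + Ska (-0.43, inside the fold limit). Cxcl10, a chemokine gene, rose from 8.21 to 39.99 TPM and fell to 13.6 TPM (-1.52, adjusted p = 5.3e-04), and Zbp1, a sensor gene for unusual nucleic acid forms, rose from 0.0189 to 6.92 TPM and fell to 1.12 TPM (-1.87, adjusted p = 3.13e-04). Ifi35 had 27.4, 40.5 and 40.2 TPM in DMSO, LPS and LPS + Ska, with log2 fold changes of 0.58 and -0.01 that were not called, and the first was called with recovered values (0.59, adjusted p = 0.0415) and after median-ratio scaling (0.66, adjusted p = 0.0167). Xaf1 was called lower with skatole from the deposited columns (-0.96, adjusted p = 0.0409) and not with recovered values (adjusted p = 0.132) or after median-ratio scaling (adjusted p = 0.0564).

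**Figure D5:**
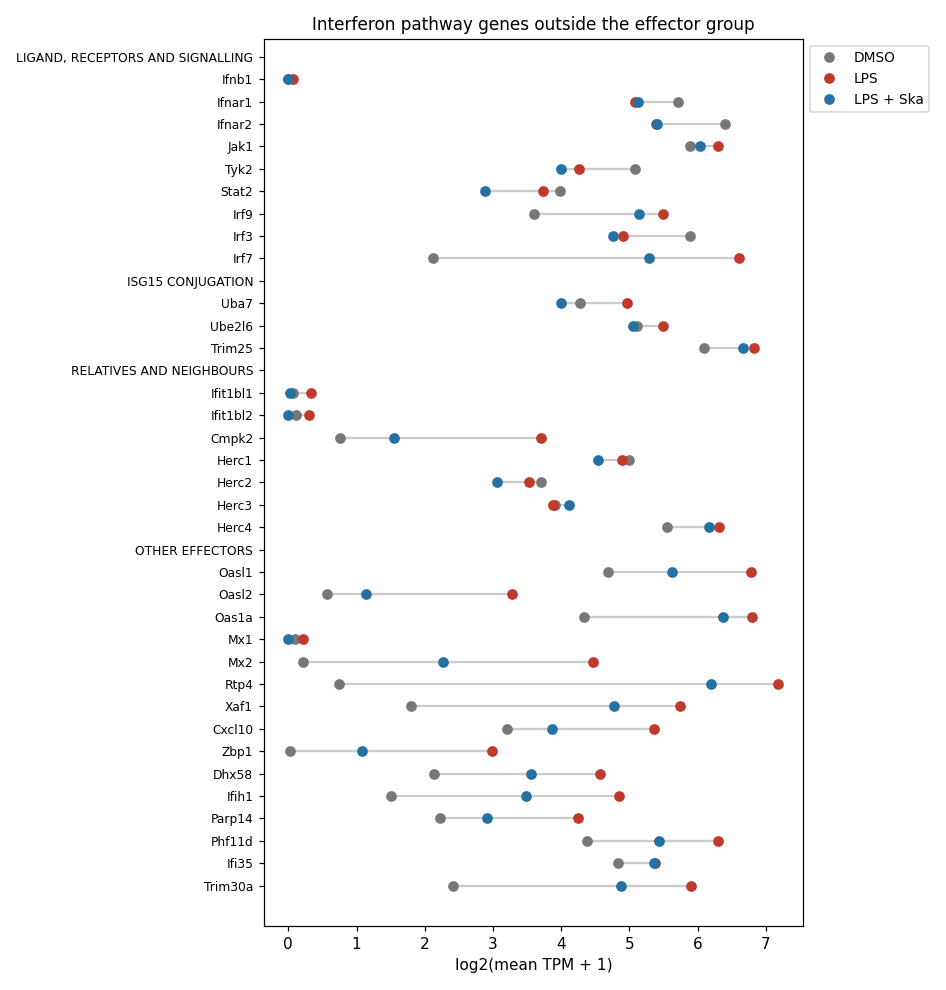
Log2(mean TPM + 1) (x axis) of 34 interferon pathway genes grouped by role; grey points are DMSO, red LPS and blue LPS + Ska, joined by a line. Most other effectors lie to the left in DMSO, to the right with LPS and between with LPS + Ska, whereas Ifnar1 and Ifnar2 lie at nearly the same place with LPS and LPS + Ska.

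The 5 genes whose log2(TPM + 1) over the 9 columns was most like the mean standardized profile of the 9 members tested were Gbp7, Parp12, Parp14, Rars and Mndal, with Pearson correlations of 0.995 to 0.997 across columns that share the tie. Gbp7, an interferon-inducible GTPase gene, had 0.0728 TPM in DMSO, 7.41 with LPS and 1.58 with LPS + Ska, and Parp12 had 34.2, 64.6 and 43.2 TPM. Like Ifit1, Ifit3 and Rsad2 in the profile, Gbp7 passed the filter only through its LPS columns, so its likeness is no independent support. Rars, an arginyl-tRNA synthetase gene, had the same shape at a smaller size, with 185, 255 and 205 TPM and no call in any comparison.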

How the data were processed

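RNA of 9 RAW264.7 samples in 3 groups was sequenced by the authors, who deposited the values as TPM for 55401 genes listed by Ensembl identifier. The submitters' processing notes name fastp 0.20.1, HISAT2 2.2.1, StringTie 2.0 and the build mm10. The annotation is not given in the sources used here, and the labels name the library kit without stating whether strand was kept. Groups and replicate numbers came from the sample labels. A reference table gave symbols for 55141 of the 55401 identifiers, and gene positions came from GENCODE M21 on GRCm38, the same assembly as mm10.

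The members and lists were chosen with earlier results of these data known. Genes whose TPM averaged 1 or more over the columns entered 1 fit of the 3 groups on log2(TPM + 1), made in R 4.3.3 by limma 3.58.1 (lmFit, then eBayes, letting the variance follow the mean), with Benjamini-Hochberg adjustment over all genes tested. Fold limits of 1.5 and 0.67 are those the study gives for its volcano plot. TPM keeps no depth, so no counting error could be given, and precision rests on the spread between columns. As replicates 6 and 7 lie at replicate 5 plus and minus 1 difference, with values under 0 listed at 0, each tied group was also replaced by 2 recovered values, replicate 5 plus and minus 0.5 times that difference, a form inferred from the columns. Other alternatives were the pseudocount, the filter, scaling, the call limits, the groups in the fit, the variance trend, leaving out any 1 column, and a replicate block. Recovered values without the filter were added after the data had been seen. The fit was tested on simulated data whose columns were independent, so that test does not cover the tie. Named genes were every member, the 34 pathway genes and the 5 genes most like the members. The pathway list held 1 more gene, which is not reported here. Promoter sequences were from RefSeq, and figures were drawn with matplotlib 3.10.9.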

Additional observations from a re-analysis of the deposited data

How the results depend on the processing

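All log2 fold changes of the members kept their direction under the alternatives run, except that of Ifit3 in LPS + Ska compared with DMSO, which ran from -0.0376 (without LPS + Ska replicate 6) to 0.41 when 1 column was left out, as its share of the LPS rise did from -0.70% to 18.6%. A minimum mean TPM of 5 left 5 members called higher with LPS and 5 called lower with skatole, because fewer members were tested. Isg15 and Herc6 passed this filter only through their LPS columns, averaging 4.03 and 4.59 TPM elsewhere, so their calls are no independent support. A fold change above 2 or below 0.5 left 8 members called higher with LPS and 7 lower with skatole. In LPS + Ska compared with DMSO it left 4 members called higher, Herc6 and Ifit1 having lost their calls. The same limits left 1 pathway gene called lower with LPS, 11 called lower with skatole, and 11 called higher and 3 lower in LPS + Ska compared with DMSO. A pseudocount of 0.1 left 8 members called higher with LPS, 6 lower with skatole and 7 higher in LPS + Ska compared with DMSO. With 1 column left out, 8 members were called higher with LPS and 8 lower with skatole each time. In LPS + Ska compared with DMSO 6 to 7 were called higher, 7 without DMSO replicate 6. Over all genes tested these counts were 1527 to 1732, 576 to 996 and 1357 to 1580. In the LPS and LPS + Ska groups the tie lets the remaining columns fix the one left out, so leaving it out is a weak check.

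Over all genes tested, adjusted p alone gave 3354 higher and 4380 lower with LPS (1630 and 2559 with the fold limits), 1139 and 2524 with skatole compared with LPS (429 and 787), and 2915 and 5201 with skatole compared with DMSO (1457 and 3243). The stricter fold limits gave 547 and 928, 142 and 199, and 519 and 1234. A minimum mean TPM of 5 gave 516 lower with skatole compared with LPS.

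Same-numbered columns of LPS and LPS + Ska deviated from their group means with correlations of 0.384, 0.151 and 0.128 across genes, and the other 6 pairs with -0.032 to 0.0801. Because of the tie in both groups, the 3 correlations do not count as separate, and a shared number was not read as a pair. With a replicate block 8 members were called higher with LPS, 8 lower with skatole and 6 higher in LPS + Ska compared with DMSO, the same counts as without it. The unknown depth limits what can be said of members near 0 TPM, namely Ifit3b, Ifit3, Ifit1 and Rsad2 outside the LPS group.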
